A study of Mus musculus with 4 samples.

Results

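The lysosomal genes described here are 51 genes for the regulators, membrane proteins, soluble hydrolases and proton pump of the lysosome, with the cathepsins left out. They were chosen by symbol, and all 51 were found among the 13834 genes of the deposited count table. RNA was sequenced from 4 samples of mouse peritoneal macrophages, 2 of the genotype Dnmt1 fl/fl and 2 of the genotype Dnmt1 KO, and the question was what loss of the DNA methyltransferase Dnmt1 does to gene expression. Dnmt1 KO mice carry the floxed Dnmt1 allele and Cre recombinase under the LysM promoter, which is active in myeloid cells. The Dnmt1 fl/fl mice carry the floxed allele, their genotype is also given as wt in the labels, and whether they carry Cre is not stated. The methods describe mice aged 10 weeks, injected with thioglycolate broth 3 days before the cells were washed from the abdominal cavity, in both genotypes. The labels do not say whether a sample is a single animal or a pool, so the p-values measure the spread between these samples, which may be technical.

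The lysosome breaks down what a macrophage takes up and what it recycles from itself. Its soluble hydrolases work at acid pH, which is kept by the V-ATPase, a proton pump made of a cytosolic V1 sector that hydrolyses ATP and a membrane V0 sector that moves protons. Transcription factors of the TFEB family (Tfeb, Tfe3 and Mitf) bind E-box sequences with the core CACGTG near the start of many lysosomal genes, and the form with GT before the core and AC after it is called the CLEAR element. In macrophages the same organelle also handles the cholesterol esters and other lipids of engulfed material.

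Total counts ran from 20228071 to 24198943 per sample, and levels are given as CPM, counts scaled by library size and TMM factor. Dnmt1 itself was at 86.6 and 67.0 CPM in the Dnmt1 fl/fl samples and at 37.0 and 42.7 CPM in the Dnmt1 KO samples, with both Dnmt1 KO samples lower (log2 fold change -0.95, standard error 0.24; edgeR, unadjusted p = 0.00839, adjusted p = 1.00 by Benjamini-Hochberg over 12542 genes). Lyz2, the lysozyme gene whose promoter drives Cre, was at 29531 and 28587 CPM in Dnmt1 fl/fl and at 11351 and 15744 CPM in Dnmt1 KO. Its log2 fold change was -1.1 (standard error 0.32), and the part of Cre in this difference was not tested. Macrophage markers other than Lyz2 (7 genes) summed to between 5741 and 6555 CPM in every sample. Dnmt1 KO replicate 1 stood apart: its neutrophil markers (4 tested genes) summed to 561 CPM against 23.0 to 115 in the other samples, its B cell markers (6 genes) to 130 against 318 to 525, its resident macrophage markers (7 genes) to 88.7 against 191 to 214, and its mesothelial and fibroblast markers (6 genes) to 65.4 against 13.7 to 32.0. The neutrophil granule genes Mpo, Elane, Camp and Ngp have no row in the table, which holds genes with a value above 0 in all 4 samples. In bulk RNA, fewer cells of a type and less RNA per cell cannot be told apart, and the part of these cells in the results below was not tested.

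No member passed the test of genotype: in edgeR with Benjamini-Hochberg adjustment 0 of 51 were called at 0.05, and 0% of the 12542 genes tested. DESeq2 and limma-voom called 0 members too, and 1 member had an unadjusted p under 0.05 in edgeR. Of the members, 44 had a fitted value higher in Dnmt1 KO, where 50.9% of all genes did, and 19 were higher by at least 0.2 on the log2 scale, where 21.8% of all genes were. A single member, Atp6v0a1, was lower by at least 0.2, where 19.7% of all genes were. These counts moved with the settings: 15 were higher and 3 lower with library totals only, 17 and 0 with limma-voom or the replicate block and 16 and 0 with the length correction, and leaving out a sample gave 10 and 6 (Dnmt1 KO replicate 1), 29 and 7 (Dnmt1 KO replicate 2), 36 and 0 (Dnmt1 fl/fl replicate 1) and 18 and 5 (Dnmt1 fl/fl replicate 2). The median log2 fold change of the members was 0.13, beside 0.0046 for all genes tested. It was 0.0031 without Dnmt1 KO replicate 1, 0.24 without Dnmt1 KO replicate 2, 0.28 without Dnmt1 fl/fl replicate 1 and 0.091 without Dnmt1 fl/fl replicate 2, so it depended on single libraries of both genotypes.

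In 32 of the 51 members (62.7%) Dnmt1 KO replicate 1 was the highest of the 4 samples, against 38.8% of all genes. This was so for 14 of the 16 V-ATPase genes and for 18 of the other 35 members. Dnmt1 KO replicate 1 was above both controls in 33 members, where 41% of all genes were, and Dnmt1 KO replicate 2 in 15, where 32.6% of all genes were. None of those 15 was a V-ATPase gene, and 12 of the 16 V-ATPase genes were below both controls in Dnmt1 KO replicate 2, where 32% of all genes were. In 8 members, all outside the V-ATPase, the genotypes did not overlap: 7 were higher in both Dnmt1 KO samples, where 8.14% of all genes were, and 1 was lower in both, where 8.56% of all genes were. This split moved to 4 higher and 2 lower with the length correction and to 10 and 0 with upper-quartile factors.

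**Figure D1:**
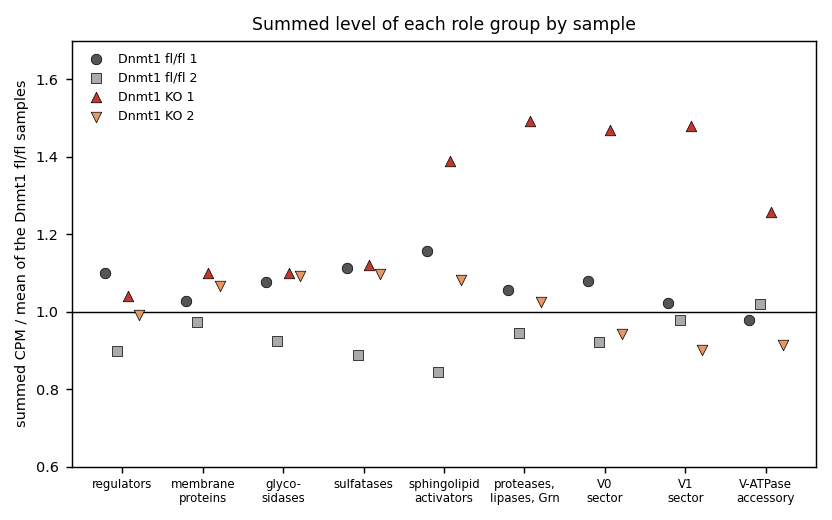
Summed CPM of each role group in each of the 4 samples, divided by the mean of the Dnmt1 fl/fl samples (vertical axis, from 0.6). Dnmt1 KO replicate 1 (red triangles) is the highest in every group but the regulators, by little in the membrane proteins, glycosidases and sulfatases and by more in the other groups, while Dnmt1 KO replicate 2 lies within the control samples or below them in the V0 and V1 sectors.

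Promoter windows of 300 bases (250 before and 50 after the start site, RefSeq, GRCm38.p6) were found for 44 of the 51 members. The letters CACGTG, which read the same on both strands, occurred in the windows of 12 of these 44 members (27.3%), in 11.9% of the tested genes with a window and in 8.09% of all genes with a window. The CLEAR element, GT and AC on either side of those letters, occurred in 0 of the 44 members and in 0.821% of the tested genes. Only its exact letters were searched, so near matches were not counted. Among the V-ATPase members, 4 of 11 held the core. CG dinucleotides, the pairs that Dnmt1 methylates, were counted in the window of each gene that held the most. The members had between 1 and 30, with a median of 17 beside 22 for the tested genes. A match of letters is a description of the window and says nothing on binding.

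The stretches below are shown because they belong to the 4 members with more than 1 core match before the start site, with CACGTG in capitals. They were chosen after the matches were seen. Lamp1 holds 4 matches between 61 and 15 bases before its start site, the most of any member, on the plus strand at chr8:13159070-13159160. Mcoln1 holds 2 matches, of which the one outside annotated exons is shown, on the plus strand at chr8:3500418-3500456. Atp6v0b holds 2 matches at 36 and 18 bases before its start, on the minus strand at chr4:117887334-117887395. Gla holds 2 matches farther from its start, at 227 and 194 bases, on the minus strand at chrX:134601184-134601255.
Lamp1: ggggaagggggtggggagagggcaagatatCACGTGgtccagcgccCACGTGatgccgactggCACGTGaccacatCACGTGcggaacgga
Mcoln1: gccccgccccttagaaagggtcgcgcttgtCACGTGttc
Atp6v0b: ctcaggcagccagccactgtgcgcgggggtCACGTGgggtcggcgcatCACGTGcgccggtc
Gla: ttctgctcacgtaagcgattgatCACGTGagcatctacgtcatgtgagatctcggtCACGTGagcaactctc

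The 3 regulators were low, and each differed between genotypes by less than its standard error. Tfeb, which switches on lysosomal genes when it enters the nucleus, was at 76.5 and 59.6 CPM in Dnmt1 fl/fl and at 79.2 and 68.2 CPM in Dnmt1 KO (log2 fold change 0.11, standard error 0.24). Tfe3, its close relative, was at 109 and 97.2 CPM in Dnmt1 fl/fl and at 118 and 107 CPM in Dnmt1 KO (log2 fold change 0.13, standard error 0.22). Mitf, the member best known from melanocytes and osteoclasts, was at 109 and 84.5 CPM in Dnmt1 fl/fl and at 81.7 and 90.8 CPM in Dnmt1 KO (log2 fold change -0.17, standard error 0.24). The genotypes overlapped for all 3 genes, and in each of them Dnmt1 fl/fl replicate 1 was above Dnmt1 fl/fl replicate 2. Tfec, a relative outside the 51 genes, was at 10.5 and 10.8 CPM in Dnmt1 fl/fl and at 14.5 and 15.2 CPM in Dnmt1 KO, without overlap (log2 fold change 0.48, standard error 0.25, adjusted p = 1.00 from edgeR).

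Among the membrane proteins, Lamp1 and Laptm5 were higher and Lamp2 lower in both Dnmt1 KO samples, each by a small amount. Lamp1, an abundant glycoprotein of the lysosomal membrane (chromosome 8, 13159161 to 13175338, plus strand, with 4 core matches in the window shown above), was at 3188 and 2950 CPM in Dnmt1 fl/fl and at 3562 and 3337 CPM in Dnmt1 KO (log2 fold change 0.17, standard error 0.25). Lamp2, its companion and the receptor of chaperone-mediated autophagy (chromosome X, 38401357 to 38456454, minus strand), was at 915 and 1026 CPM in Dnmt1 fl/fl and at 884 and 905 CPM in Dnmt1 KO (log2 fold change -0.12, standard error 0.23). Laptm5, a lysosomal membrane protein of blood cells, was at 1233 and 1054 CPM in Dnmt1 fl/fl and at 1308 and 1280 CPM in Dnmt1 KO (log2 fold change 0.18, standard error 0.24). In all 3 the fold change was smaller than its standard error. Without Dnmt1 fl/fl replicate 1 the log2 fold changes of Lamp1, Lamp2 and Laptm5 were 0.23, -0.2 and 0.3. Without Dnmt1 fl/fl replicate 2 they were 0.12, -0.03 and 0.07. Lamp2 was the 1 member below both controls in both Dnmt1 KO samples, and its genotypes overlapped with library totals only or upper-quartile factors.

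The channels and transporters of the membrane overlapped. Mcoln1, the calcium channel mucolipin, was at 89.7 and 73.6 CPM in Dnmt1 fl/fl and at 61.7 and 94.2 CPM in Dnmt1 KO, so the Dnmt1 KO samples lay on either side of the controls. Ctns, which exports cystine, was at 39.9 and 36.0 CPM in Dnmt1 fl/fl and at 39.8 and 44.9 CPM in Dnmt1 KO. Laptm4a and the ion channel Tpcn1 had log2 fold changes of 0.06 and 0.02, and that of Laptm4a was -0.03 with the length correction. None of the 7 membrane genes reached 0.2 in either direction, and their median was 0.06.

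**Figure D2:**
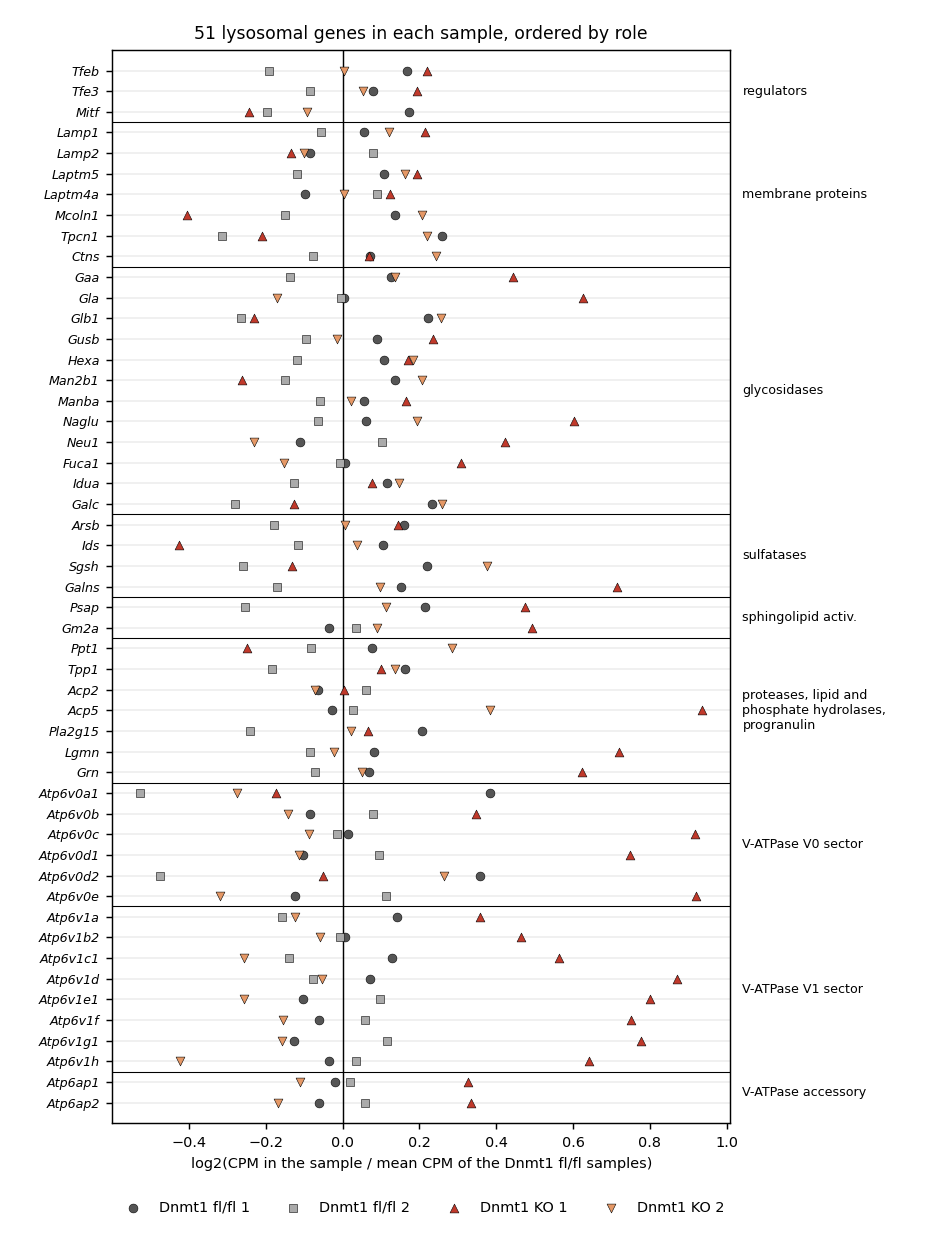
Each of the 51 genes by sample, as log2 of its CPM over the mean CPM of the Dnmt1 fl/fl samples, ordered by role. In the V1 sector the red triangles of Dnmt1 KO replicate 1 stand to the right of the other 3 samples for all 8 genes, whereas in Mcoln1, Man2b1 and Ids they stand to the left.

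The glycosidases, which take sugars off glycoproteins, glycolipids and glycosaminoglycans, had a median log2 fold change of 0.11 over 12 genes, and 3 of them reached 0.2. Naglu, which removes N-acetylglucosamine from heparan sulfate (chromosome 11, 101070012 to 101077672, plus strand), was at 156 and 143 CPM in Dnmt1 fl/fl and at 227 and 171 CPM in Dnmt1 KO (log2 fold change 0.41, standard error 0.25). Gaa, the enzyme of lysosomal glycogen breakdown, was at 126 and 105 CPM in Dnmt1 fl/fl and at 157 and 127 CPM in Dnmt1 KO (log2 fold change 0.30, standard error 0.24). In both genes the Dnmt1 KO samples were above the controls, though for Gaa the nearest samples, at 127 and 126 CPM, were almost level. Leaving out Dnmt1 KO replicate 1 gave 0.19 for Naglu and 0.13 for Gaa, and leaving out Dnmt1 KO replicate 2 gave 0.60 and 0.45. Hexa, a subunit of the hexosaminidase that degrades ganglioside GM2, did not overlap either, with 1505 and 1286 CPM in Dnmt1 fl/fl and 1571 and 1584 CPM in Dnmt1 KO (log2 fold change 0.18, standard error 0.25). The fold change of Hexa was 0.3 without Dnmt1 fl/fl replicate 1 and 0.07 without Dnmt1 fl/fl replicate 2.

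Other glycosidases followed single libraries. Gla, which removes terminal galactose from glycolipids and whose window holds 2 core matches, was at 176 and 175 CPM in Dnmt1 fl/fl and at 271 and 156 CPM in Dnmt1 KO, so its Dnmt1 KO samples lay above and below closely matched controls. Neu1, the sialidase that also serves at the cell surface, was at 125 and 145 CPM in Dnmt1 fl/fl and at 181 and 115 CPM in Dnmt1 KO. Gusb, which acts on glucuronides, was at 616 and 542 CPM in Dnmt1 fl/fl and at 682 and 573 CPM in Dnmt1 KO. Leaving out Dnmt1 KO replicate 1, these 3 genes had log2 fold changes of -0.17, -0.23 and -0.02, against 0.28, 0.13 and 0.12 with it. Glb1, the galactosidase used as a marker of senescent cells, and Galc, which degrades galactosylceramide, were arranged differently. Glb1 was at 174 and 124 CPM in Dnmt1 fl/fl and at 127 and 178 CPM in Dnmt1 KO. Galc was at 167 and 117 CPM in Dnmt1 fl/fl and at 130 and 170 CPM in Dnmt1 KO. In both, Dnmt1 fl/fl replicate 1 and Dnmt1 KO replicate 2 were the high samples.

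This last arrangement, Dnmt1 fl/fl replicate 1 and Dnmt1 KO replicate 2 above the other samples, was seen in 13 of the 51 members and in 29.1% of all genes. The reverse arrangement was seen in 12 members and in 28.7% of all genes. Both counts were near or under the share of all genes. The first arrangement held 12 of the 35 genes outside the V-ATPase and 1 of the 16 within it, Atp6v0d2, and the reverse held 3 of 35 (Laptm4a, Neu1 and Acp2) and 9 of 16, a split whose difference was not tested. The marker sums of neutrophils, recruited monocytes (5 genes) and mesothelial cells and fibroblasts had the reverse arrangement too. Taken singly, 3 of 4, 3 of 5 and 5 of 6 of their genes had it. Ccr2 and Plac8 were the monocyte markers without it. Ccr2 was at 498 and 682 CPM in Dnmt1 fl/fl and at 376 and 594 CPM in Dnmt1 KO, with Dnmt1 KO replicate 1 the lowest. In Dnmt1 fl/fl replicate 2 and Dnmt1 KO replicate 1 the neutrophil sum was 115 and 561 CPM, against 23.0 and 26.1 in the other samples, the monocyte sum 1312 and 1007 CPM against 843 and 964, and the mesothelial and fibroblast sum 32.0 and 65.4 CPM against 20.8 and 13.7. Their part in these arrangements was not tested.

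Of the sulfatases, Galns, which desulfates keratan and chondroitin sulfate, had a log2 fold change of 0.44 (standard error 0.29), with overlap, and of 0.10 without Dnmt1 KO replicate 1. Its level was 92.8 and 74.2 CPM in Dnmt1 fl/fl and 137 and 89.3 CPM in Dnmt1 KO, values given here because of the fold change with all samples. Ids, which desulfates dermatan and heparan sulfate, had -0.18 (standard error 0.26). Arsb and Sgsh had 0.08 and 0.15. Annotated exons of another gene on the other strand overlap 32.27% of the exonic bases of Arsb and 21.64% of those of Sgsh, and whether counting used strand is not stated, so their values are uncertain. The same holds, over fewer bases, for Hexa (12.78%), Acp2 (12.57%), Atp6v0b (11.85%), Lamp1 (9.31%) and Acp5 (6.75%), and 14 of the 51 members share exonic bases with another gene.

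Psap was by far the most abundant member. It encodes prosaposin, the precursor of the saposins that present sphingolipids to hydrolases, and was at 22022 and 15898 CPM in Dnmt1 fl/fl and at 26340 and 20512 CPM in Dnmt1 KO (log2 fold change 0.31, standard error 0.33). The controls differed by 0.47 on the log2 scale, more than the genotypes, and the log2 fold change of Psap was 0.11 without Dnmt1 KO replicate 1, 0.47 without Dnmt1 KO replicate 2, 0.56 without Dnmt1 fl/fl replicate 1 and 0.09 without Dnmt1 fl/fl replicate 2. Gm2a, the activator that lifts ganglioside GM2 out of the membrane for Hexa (chromosome 11, 55098115 to 55113029, plus strand), was at 508 and 533 CPM in Dnmt1 fl/fl and at 733 and 554 CPM in Dnmt1 KO, without overlap (log2 fold change 0.30, standard error 0.25). Leaving out Dnmt1 KO replicate 1 gave 0.09 for Gm2a.

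Acp5 had the largest fold change of the 51 genes. It encodes tartrate-resistant acid phosphatase, known from osteoclasts and activated macrophages (chromosome 9, 22126727 to 22135711, minus strand). Its level was 85.6 and 89.0 CPM in Dnmt1 fl/fl, a mean of 87.3 ± 2.39 (SD, n = 2), and 167 and 114 CPM in Dnmt1 KO, a mean of 141 ± 38.0 (SD, n = 2). Both Dnmt1 KO samples were above both controls, and Dnmt1 KO replicate 1 was the farther. The log2 fold change was 0.69 (standard error 0.27, unadjusted p = 0.045 and adjusted p = 1.00 from edgeR), the single unadjusted p under 0.05 among the members, where 0.279% of all genes had one. Blocking on replicate number in edgeR gave Acp5 a log2 fold change of 0.66 with an unadjusted p of 0.111, the crossed pairing 0.66 with 0.0165, and the length correction, fitted in limma, 0.52 with 0.0203, or with 0.0641 where the replicate block was added. The log2 fold change was 0.38 without Dnmt1 KO replicate 1 and 0.94 without Dnmt1 KO replicate 2.

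Lgmn and Grn, both abundant, were set by Dnmt1 KO replicate 1. Lgmn, the asparaginyl endopeptidase legumain, was at 2013 and 1794 CPM in Dnmt1 fl/fl and at 3135 and 1875 CPM in Dnmt1 KO (log2 fold change 0.40, standard error 0.33, and -0.02 without Dnmt1 KO replicate 1). Grn, which encodes progranulin, was at 2075 and 1883 CPM in Dnmt1 fl/fl and at 3049 and 2049 CPM in Dnmt1 KO (log2 fold change 0.37, standard error 0.30, and 0.05 without Dnmt1 KO replicate 1). In both genes Dnmt1 KO replicate 2 was within the range of the controls. The remaining hydrolases of this group differed less. Ppt1, the thioesterase that removes palmitate from proteins, was at 143 and 128 CPM in Dnmt1 fl/fl and at 114 and 165 CPM in Dnmt1 KO, with the Dnmt1 KO samples on either side of the controls. Tpp1, a tripeptidyl peptidase, was at 405 and 319 CPM in Dnmt1 fl/fl and at 388 and 398 CPM in Dnmt1 KO. Acp2, the lysosomal acid phosphatase, was at 208 and 227 CPM in Dnmt1 fl/fl and at 218 and 207 CPM in Dnmt1 KO, the smallest spread over the 4 samples in this group. Pla2g15, the lysosomal phospholipase, was at 218 and 160 CPM in Dnmt1 fl/fl and at 198 and 192 CPM in Dnmt1 KO, with both Dnmt1 KO samples between the controls.

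**Figure D3:**
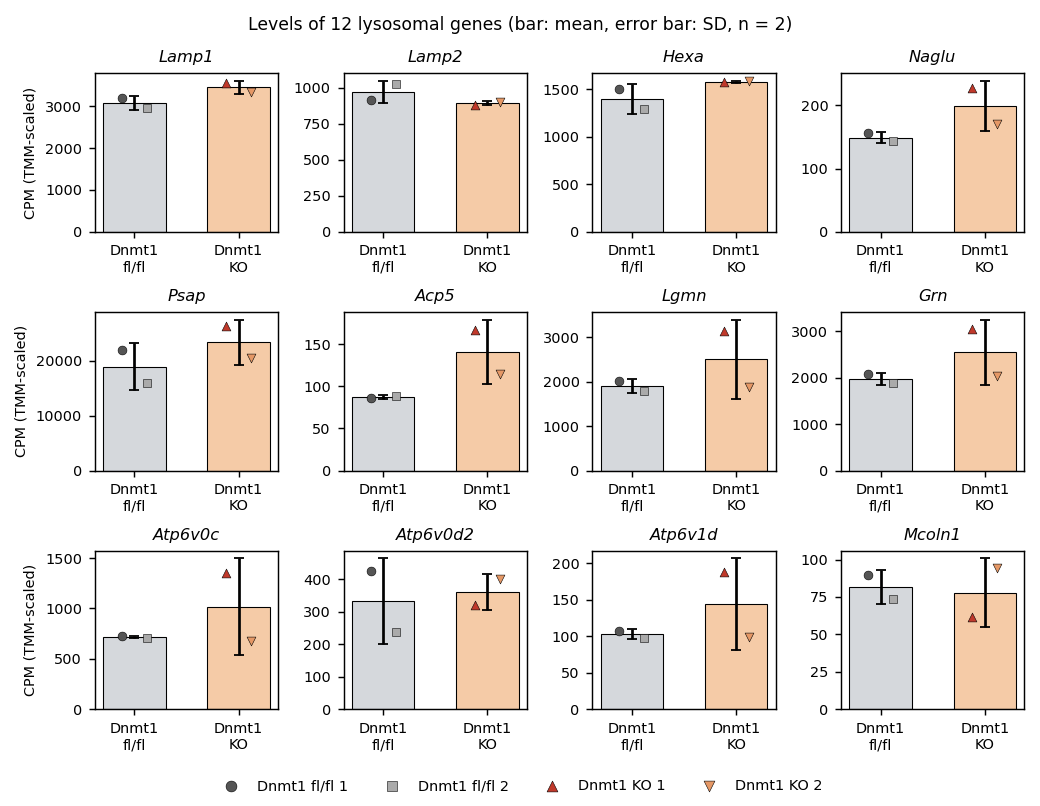
CPM of 12 of the genes by genotype, with bars at the mean, error bars at the SD (n = 2) and a point for each sample, and with axes from 0. The Dnmt1 KO points of Acp5 both lie above the controls, those of Lgmn, Grn, Atp6v0c and Atp6v1d are far apart, and those of Mcoln1 lie on either side of the controls.

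The V-ATPase genes separated the Dnmt1 KO samples from each other more than they separated the genotypes. Over the 14 genes of the V0 and V1 sectors, Dnmt1 KO replicate 2 less Dnmt1 KO replicate 1 had a median of -0.88 on the log2 scale, with a range from -1.24 to 0.31, and Dnmt1 fl/fl replicate 2 less Dnmt1 fl/fl replicate 1 had a median of 0.03, with a range from -0.91 (Atp6v0a1) to 0.24. Without regard to sign, the median difference between the Dnmt1 KO samples was 0.46 over all 51 members and 0.48 over all genes tested, and between the Dnmt1 fl/fl samples it was 0.21 over both. The summed level was 4575 and 4149 CPM in Dnmt1 fl/fl and 6431 and 4018 CPM in Dnmt1 KO. Dnmt1 KO replicate 1 was thus above both controls and Dnmt1 KO replicate 2 below both. The median log2 fold change of these 14 genes was 0.30 with all samples, -0.15 without Dnmt1 KO replicate 1 and 0.70 without Dnmt1 KO replicate 2. On all samples it was 0.18 with the length correction and 0.2 with library totals only.

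In the V1 sector, Dnmt1 KO replicate 1 was the highest sample in 8 of 8 genes, and Dnmt1 KO replicate 2 was below both controls in 6 of 8. Atp6v1a, the catalytic subunit, was at 595 and 484 CPM in Dnmt1 fl/fl and at 691 and 495 CPM in Dnmt1 KO (log2 fold change 0.14, standard error 0.28). Atp6v1b2, the other subunit of the ATP-hydrolysing ring, was at 712 and 706 CPM in Dnmt1 fl/fl and at 978 and 681 CPM in Dnmt1 KO (log2 fold change 0.23, standard error 0.27). Atp6v1h, which governs the coupling of the sectors, was at 122 and 128 CPM in Dnmt1 fl/fl and at 195 and 93.2 CPM in Dnmt1 KO (log2 fold change 0.21, standard error 0.38). In Atp6v1h the Dnmt1 KO samples differed by 1.07 on the log2 scale and lay on either side of controls that differed by 0.07. Atp6v1e1, a subunit of the outer stalk, was at 268 and 308 CPM in Dnmt1 fl/fl and at 502 and 241 CPM in Dnmt1 KO (log2 fold change 0.37, standard error 0.38). The other V1 genes had log2 fold changes of 0.49 (Atp6v1d), 0.39 (Atp6v1g1), 0.37 (Atp6v1f) and 0.21 (Atp6v1c1), all with overlap. With the length correction these were 0.43, 0.15, 0.07 and 0.24.

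In the V0 sector the genes of the proton-carrying ring and the smaller subunits had Dnmt1 KO replicate 1 as the highest sample, as in V1, and Atp6v0a1 and Atp6v0d2 did not. Atp6v0c, the proteolipid of the ring (chromosome 17, 24163866 to 24169702, minus strand), was at 725 and 710 CPM in Dnmt1 fl/fl, a mean of 717 ± 10.1 (SD, n = 2), and at 1356 and 676 CPM in Dnmt1 KO, a mean of 1016 ± 481 (SD, n = 2). Its log2 fold change was 0.50 (standard error 0.37). Atp6v0e, a small membrane subunit, was at 197 and 232 CPM in Dnmt1 fl/fl and at 406 and 172 CPM in Dnmt1 KO (log2 fold change 0.43, standard error 0.43), and its Dnmt1 KO samples differed by 1.24 on the log2 scale, the most of any member. Atp6v0b, the other ring gene, whose window holds 2 core matches, had a log2 fold change of 0.12 (standard error 0.26), which was -0.09 with the length correction.

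The paralogous d subunits, which join the ring to the central stalk, were arranged in opposite ways. Atp6v0d1, the form found in most tissues, was at 149 and 171 CPM in Dnmt1 fl/fl and at 269 and 148 CPM in Dnmt1 KO (log2 fold change 0.38, standard error 0.34, and 0.21 with the length correction). Atp6v0d2, the form known from osteoclasts and macrophages, was at 426 and 239 CPM in Dnmt1 fl/fl and at 321 and 399 CPM in Dnmt1 KO (log2 fold change 0.12, standard error 0.34). In Atp6v0d2 both Dnmt1 KO samples lay between the controls. Atp6v0a1, 1 of the genes for the large a subunit, was at 455 and 242 CPM in Dnmt1 fl/fl and at 309 and 288 CPM in Dnmt1 KO (log2 fold change -0.23, standard error 0.35), again with both Dnmt1 KO samples between the controls. The fold change of Atp6v0a1 was 0.30 without Dnmt1 fl/fl replicate 1. Tcirg1, which encodes the a subunit typical of lysosomes and osteoclasts and is outside the 51 genes, was at 748 and 603 CPM in Dnmt1 fl/fl and at 438 and 738 CPM in Dnmt1 KO, with Dnmt1 KO replicate 1 the lowest. Atp6v0a2, another a subunit gene outside the 51, was at 49.7 and 56.8 CPM in Dnmt1 fl/fl and at 55.4 and 48.6 CPM in Dnmt1 KO, with Dnmt1 KO replicate 2 the lowest.

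The accessory proteins were closer between samples. Atp6ap1, which helps to assemble the pump, was at 542 and 556 CPM in Dnmt1 fl/fl and at 689 and 508 CPM in Dnmt1 KO (log2 fold change 0.12, standard error 0.26). Atp6ap2, also known as the prorenin receptor, was at 222 and 241 CPM in Dnmt1 fl/fl and at 292 and 206 CPM in Dnmt1 KO (log2 fold change 0.10, standard error 0.26). Both had Dnmt1 KO replicate 1 above and Dnmt1 KO replicate 2 below the controls.

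**Figure D4:**
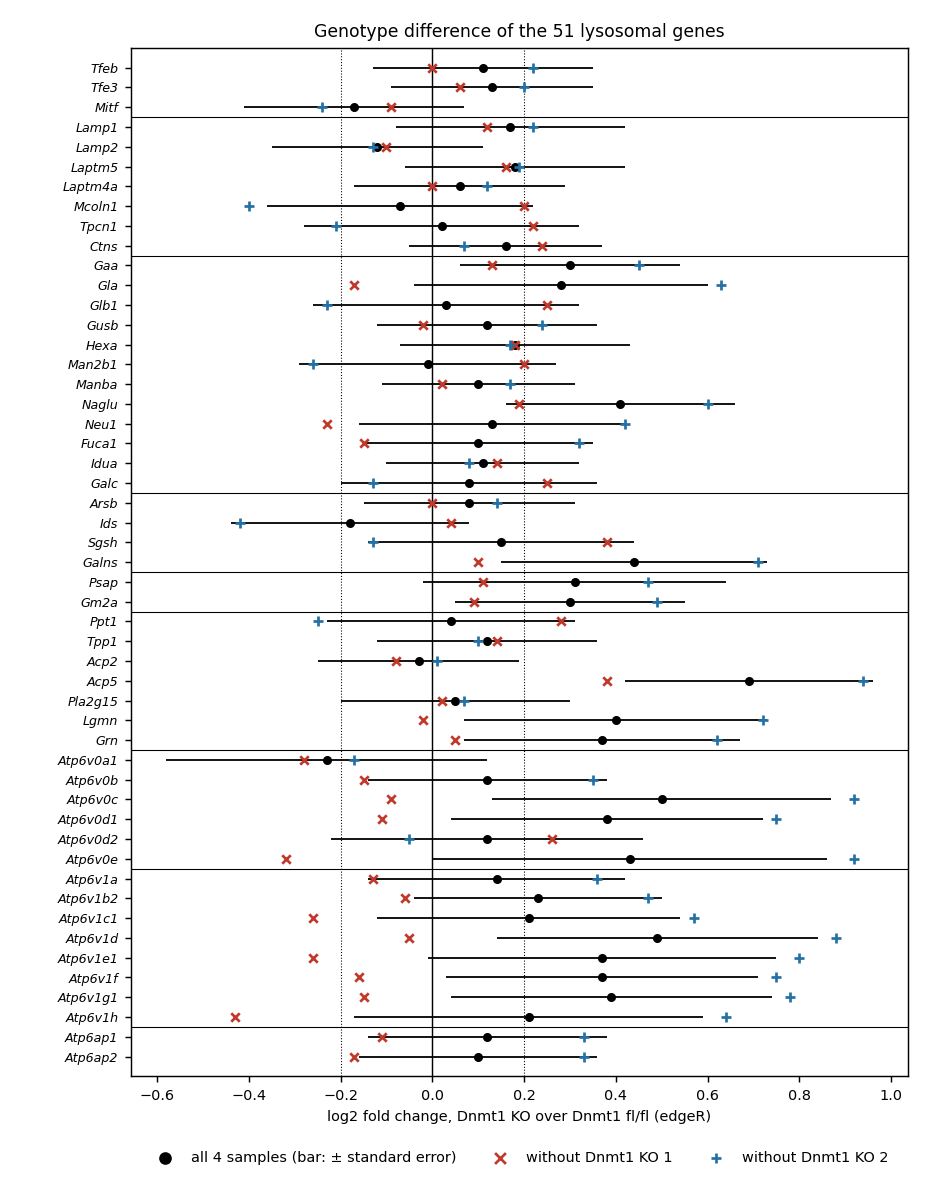
Log2 fold change of Dnmt1 KO over Dnmt1 fl/fl for each gene from edgeR with all 4 samples (black points, bars of 1 standard error), without Dnmt1 KO replicate 1 (red crosses) and without Dnmt1 KO replicate 2 (blue plus signs). Dotted lines mark 0.2 in either direction. The crosses and plus signs stand on opposite sides of 0 for most V-ATPase genes and on the same side for Acp5, Naglu, Gaa, Lamp1 and Lamp2.

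Without Dnmt1 KO replicate 2, edgeR gave an adjusted p under 0.05 to 7 members, where 8.22% of the genes tested passed. These were Acp5 and the V-ATPase genes Atp6v0c, Atp6v0e, Atp6v1d, Atp6v1e1, Atp6v1f and Atp6v1g1, with log2 fold changes from 0.75 to 0.94. That comparison sets 1 Dnmt1 KO sample, the one with the most neutrophil transcripts, against the controls and assumes that it varies as they do. Without Dnmt1 KO replicate 1, 0 members and 0% of genes passed in edgeR, and before adjustment 0 members and 349 of 12912 genes reached 0.05.

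Levels were also compared between genes per length, as CPM per kilobase of the longest annotated transcript, which may not be the one made in these cells. Psap led with 7136 in Dnmt1 fl/fl and 8817 in Dnmt1 KO, followed by Lamp1 with 1377 and 1548, Lgmn with 957 and 1259, Grn with 846 and 1089 and Hexa with 699 and 791. Lgmn and Grn differed from each other by less than the Dnmt1 KO samples of either gene did. Of the V-ATPase genes, Atp6v0c had 280 and 396 and Atp6v0b 293 and 318, so their order differed between the genotypes, and the Dnmt1 KO samples of Atp6v0c were far apart. The regulators were near the bottom of the order, with 29.1 and 31.5 for Tfeb, 19.9 and 17.7 for Mitf and 16.3 and 17.8 for Tfe3, and Arsb was last with 6.59 and 6.94. Mitf and Tfe3 changed places between the genotypes, a difference smaller than the spread of Mitf in the controls.

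**Figure D5:**
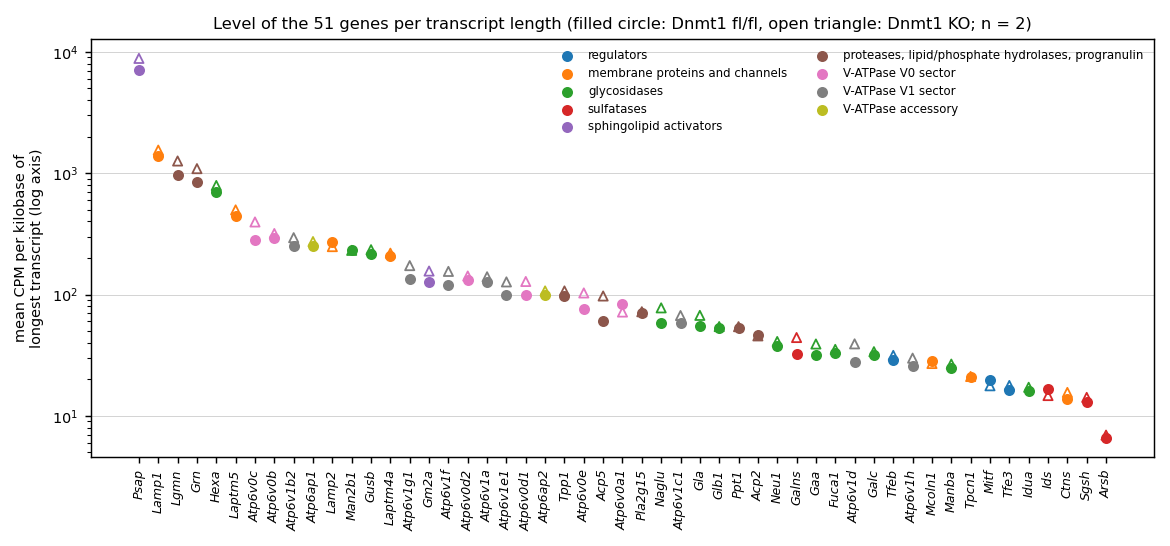
Mean CPM per kilobase of the longest transcript for the 51 genes on a log axis, in falling order of the mean over all samples, with filled circles for Dnmt1 fl/fl and open triangles for Dnmt1 KO (n = 2 each) and colours for roles. Psap stands above all others, the V-ATPase genes spread over the order from Atp6v0c to Atp6v1h, and the TFEB family lies near the bottom.

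Other genes of the lysosome, its sorting machinery and the control of TFEB were counted from a list of 74 symbols, of which 67 were in the table and tested. With edgeR, 0 of the 67 passed 0.05 either before or after adjustment. Of these, 18 were higher and 3 lower by at least 0.2, where 21.8% and 19.7% of all genes were, and their median log2 fold change was 0.07. Both Dnmt1 KO samples were above both controls in 10 genes, where 8.14% of all genes were, and below in 1 (Mfsd8, a lysosomal membrane transporter), where 8.56% were. Among the 10 was Smpd1, the acid sphingomyelinase, with 31.2 and 31.5 CPM in Dnmt1 fl/fl and 45.9 and 34.6 CPM in Dnmt1 KO, where Dnmt1 KO replicate 1 was the farther from the controls. The 22 other hydrolases and cofactors had a median of 0.16, the 19 other membrane proteins 0.03, the 14 sorting genes 0.07 and the 8 genes for the control of TFEB -0.02. The 4 other V-ATPase genes had a median of -0.03 and summed to 801 and 667 CPM in Dnmt1 fl/fl and to 495 and 797 CPM in Dnmt1 KO, so Dnmt1 KO replicate 1 was the lowest in their sum and the highest in 0 of the 4.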

How the data were processed

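RNA from 4 samples was sequenced as paired-end reads, and per the labels and the methods the authors aligned them with HISAT2 2.0.5 to the mouse genome (mm10 in the submitters' processing notes) and counted them per gene with featureCounts 1.5.0-p3. The deposited values are estimated counts without normalization; between 72.6% and 76.4% per sample are whole numbers, 20 of the 51 members have a value that is not, and how reads of several genes were shared out is not given in the sources used here. Counts were rounded, filtered with filterByExpr and scaled by TMM (factors 0.91 to 1.044) with edgeR 4.0.16 under R 4.3.3. The test of genotype was the two-sided quasi-likelihood test of edgeR, p-values being adjusted by Benjamini-Hochberg over 12542 genes; 51 of 51 members were tested. The fit had a common dispersion of 0.0837 (coefficient of variation 28.9%). Standard errors come from the quasi-likelihood statistic. An exact permutation test of a single value with 2 samples per genotype cannot go below p = 0.333. A floor of 3 counts is 0.124 to 0.148 CPM and covers counting error only.

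The members, lists and tests were chosen with earlier results of these data known. Members named with values were well-known lysosomal genes listed by symbol, any with an unadjusted p under 0.05, those with the 3 largest positive and negative log2 fold changes without overlap (1 was negative), and the 3 largest differences between replicates. The alternatives tried were limma-voom (limma 3.58.1), DESeq2 1.42.0, other scaling and filters, a replicate block, a loess correction (span 0.5) for transcript length, and leaving out each sample; a crossed pairing was added after seeing that deviations of same-numbered samples correlated at -0.35. Positions and transcript lengths are from GENCODE M21 (GRCm38), and promoters from RefSeq (GRCm38.p6), matched by symbol. Protein sequences were not used here. A shorter deposited table repeats rows of the whole table and was not used.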

Additional observations from a re-analysis of the deposited data

How the results depend on the processing

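The crossed pairing was chosen after seeing the data. No member had an adjusted p under 0.05 under any alternative on all 4 samples. The count of members called was 1 at an unadjusted p under 0.05 and ran from 0 to 7 with 1 sample left out. Genes called among all tested were 0, with 35 at an unadjusted p under 0.05, 1 with DESeq2, 2 with the crossed pairing and 0 to 1049 with 1 sample left out, the highest without Dnmt1 KO replicate 2. Members past 0.2 were 20, with 2 at a threshold of 0.5 and 16 to 36 with 1 sample left out. Members without overlap were 8, with 6 to 10 under other scalings, filters and the length correction, and 18 to 39 with 1 sample left out, where a lone sample overlaps less by construction. The members' median log2 fold change of 0.13 ran from 0.0587 with library totals only, where the median of all genes moved to -0.0624, to 0.1430 with no filter, and from 0.0031 to 0.28 with 1 sample left out. The length correction lowered the median of the V0 and V1 genes from 0.30 to 0.18. The cause of these changes was not tested.

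With the replicate number as a block, 0 members and 0 genes had an adjusted p under 0.05, 17 members passed 0.2 and the median was 0.1290; the crossed pairing gave 0, 17 and 0.1289. The numbers are shared labels only. Under the block Acp5 lost its unadjusted call at a log2 fold change of 0.66, a call it kept with the crossed pairing. Members past 0.2 fell from 20 to 17 under the block, and Atp6v0a1 (-0.16) and Atp6v1h (0.11) were among those that no longer passed.

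Among the 36 members followed under every alternative, 4 changed direction on all 4 samples: Glb1 from 0.0335 to -0.0181, Ppt1 from 0.0396 to -0.012 and Pla2g15 from 0.0469 to -0.0226 with library totals only, and Ppt1 to -0.0207 and Acp2 from -0.0334 to 0.0314 with the length correction, with or without the replicate block. Of the other members, the length correction also turned Atp6v0b (0.12 to -0.09), Laptm4a (0.06 to -0.03) and Man2b1 (-0.01 to 0.01). With 1 sample left out the ranges of most members crossed 0. Tfeb ran from -0.0493 to 0.31, Mitf from -0.34 to 0.0307, Mcoln1 from -0.40 to 0.20, Gla from -0.17 to 0.63, Glb1 from -0.23 to 0.30, Gusb from -0.0166 to 0.24, Neu1 from -0.23 to 0.42 and Galc from -0.15 to 0.36. Ppt1 ran from -0.25 to 0.28, Tpp1 from -0.0389 to 0.30, Acp2 from -0.0916 to 0.0332, Pla2g15 from -0.15 to 0.29 and Lgmn from -0.0243 to 0.72. In the V-ATPase, Atp6v0a1 ran from -0.60 to 0.30, Atp6v0c from -0.0881 to 0.92, Atp6v0d1 from -0.11 to 0.75, Atp6v0d2 from -0.24 to 0.59, Atp6v0e from -0.32 to 0.92, Atp6v1a from -0.13 to 0.36, Atp6v1b2 from -0.0597 to 0.47, Atp6v1e1 from -0.26 to 0.80, Atp6v1h from -0.43 to 0.64, Atp6ap1 from -0.11 to 0.33 and Atp6ap2 from -0.17 to 0.33. Among members outside the 36 they crossed 0 in Atp6v0b (-0.15 to 0.35), Atp6v1c1 (-0.26 to 0.57), Atp6v1d (-0.05 to 0.88), Atp6v1f (-0.16 to 0.75), Atp6v1g1 (-0.15 to 0.78), Laptm4a (-0.02 to 0.17), Tpcn1 (-0.23 to 0.34), Man2b1 (-0.26 to 0.20), Fuca1 (-0.15 to 0.32), Arsb (-0.08 to 0.25), Ids (-0.42 to 0.04) and Sgsh (-0.13 to 0.40), and Idua ran from just under 0 to 0.24. A fit with 1 sample in a genotype assumes that it varies like the other genotype. With 2 samples per genotype, the spread between replicates limits these results.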
